A study of Mus musculus with 7 samples.

Results

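Brown adipocyte identity genes are described here as a set of 8 genes: the transcriptional regulators Prdm16, Ebf2, Zic1, Lhx8 and Tbx15 and the brown fat markers Cidea, Letmd1 and Pank1. They were taken by gene symbol as lineage factors and markers, and effectors of adrenergic heat production were left out of the set. Each symbol matched 1 row of the deposited gene table, so the set holds 8 of 55487 genes, and 8 of 8 passed the filter on low counts.

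Brown adipocytes burn fat to make heat and arise mostly from a dermomyotomal lineage that also yields skeletal muscle. PRDM16 is a zinc finger coregulator that favours the brown fat programme over the muscle programme, and EBF2 is a transcription factor that marks brown precursors and opens brown-specific chromatin for PPARgamma. ZIC1 and LHX8 mark classical brown fat against inducible beige fat, TBX15 is found in brown and beige fat and also in fast muscle, and CIDEA coats lipid droplets. LETMD1 is a protein of the mitochondrial inner membrane that brown fat needs for heat production, and PANK1 starts the synthesis of coenzyme A.

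The tissue was brown fat from 7 mice of the NOD/ShiLtJ strain, which is prone to autoimmune diabetes, and its RNA was sequenced. In the CB-100 group (4 mice), animals with a blood glucose between 190 and 230 mg/dL received CB-100, the fraction above 100 kDa of buffer conditioned by brown adipocytes, under the skin for 7 days at 1.5 mg per kg of body weight. The sham group (3 mice) received KRBH buffer, and its labels repeat the CB-100 protocol without a schedule for the buffer. RNA was isolated 2 to 8 weeks after the injections, with no week or age given per mouse. Sample titles carry the code nd in CB-100 and d in sham, which is not spelled out. If it marks a difference between the mice, such as disease state, each CB-100 against sham value below is also a comparison along that difference, and the code and the injection cannot be told apart. The labels call the injected material imBAT conditioned buffer.

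Libraries held 10815101 to 28528471 counts. Xist and 4 Y-linked genes gave 1 male per group, CB-100 replicate 3 and sham replicate 3. Levels are CPM (counts scaled to a common library size) with totals adjusted by TMM, a trimmed mean of ratios between libraries, and are given below in the order of replicates. Of 16823 genes tested with edgeR's quasi-likelihood test, 622 (3.70%) passed a Benjamini-Hochberg (BH) adjusted p of 0.05, 1.42% higher in CB-100 and 2.28% lower. That count is far lower without some libraries, down to 14 without sham replicate 1 and 8 without sham replicate 3, and it was 10 with skeletal muscle RNA as a covariate. Mitochondrially encoded genes took 22.3% to 36.3% of counts in CB-100 and 14.3% to 22.8% in sham, and general adipocyte genes summed to 15744 to 18792 CPM in CB-100 and 19205 to 25472 CPM in sham. In bulk tissue, fewer cells of a type and less RNA per cell cannot be told apart.

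Levels of the identity genes overlapped between treated and sham mice in each of the 8 genes, with small to moderate estimates of either sign. Of the 8 genes, 0 passed edgeR's test, against 3.70% of all genes tested, and DESeq2 and limma voom also called 0, against 10.8% and 7.21% of all genes. At these shares a count of 0 among 8 genes is near the background and says nothing particular about them. At an unadjusted p under 0.05, edgeR held 1 of the 8, Zic1, against 23.9% of all genes. In 0 of the 8 did the 4 CB-100 libraries lie apart from the 3 sham libraries, against 23.3% of all genes. The estimates were above 0 in 3 genes (Letmd1, Prdm16 and Ebf2) and below 0 in 5, with a median log2 change of -0.12 against 0.03 over all genes tested. The sign of the median of the 8 rests on 1 library, as it was 0.05 without CB-100 replicate 4. That library had the largest mitochondrially encoded share (36.3%) and the lowest level of Ebf2, Lhx8, Tbx15 and Pank1. The absolute log2 change was under 0.5 in 7 of the 8, and in 66.9% of all genes. A p that misses the threshold does not show equal levels, so the 95% interval of each log2 change is given with it. All 8 estimates lay within 1 log2 unit of 0, as did 90.9% of all genes. The intervals of 6 genes lay within that span, that of Letmd1 only just, while those of Zic1 and Tbx15 reached further down.

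Levels within the set differed far more between genes than between mice. Per kb of annotated exon, Cidea came first with a median of 515 CPM per kb over the 7 libraries (284 to 577), followed by Letmd1 at 58.8 (43.9 to 93.3), Pank1 at 42.0 (25.1 to 47.3) and Ebf2 at 14.9 (10.4 to 17.1). Prdm16 stood at 7.05 (5.56 to 8.99), Lhx8 at 2.39 (1.40 to 3.22), Zic1 at 1.18 (0.79 to 2.39) and Tbx15 at 1.07 (0.87 to 1.90) CPM per kb. The ranges of Letmd1 and Pank1, of Lhx8 and Zic1, and of Zic1 and Tbx15 overlapped, and those of the other neighbours did not. Within each library Letmd1 was above Pank1 and Lhx8 above Zic1, in 7 of 7, while Zic1 was above Tbx15 in 4 of 7. Among 13342 protein-coding genes ranked by mean level per kb, Cidea was number 33, Letmd1 352, Pank1 562, Ebf2 1746 and Prdm16 3785. Lhx8 (8195), Zic1 (9812) and Tbx15 (9897) lay in the lower part. The length counts each exon of any transcript, so genes with long alternative exons are placed too low.

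**Figure D1:**
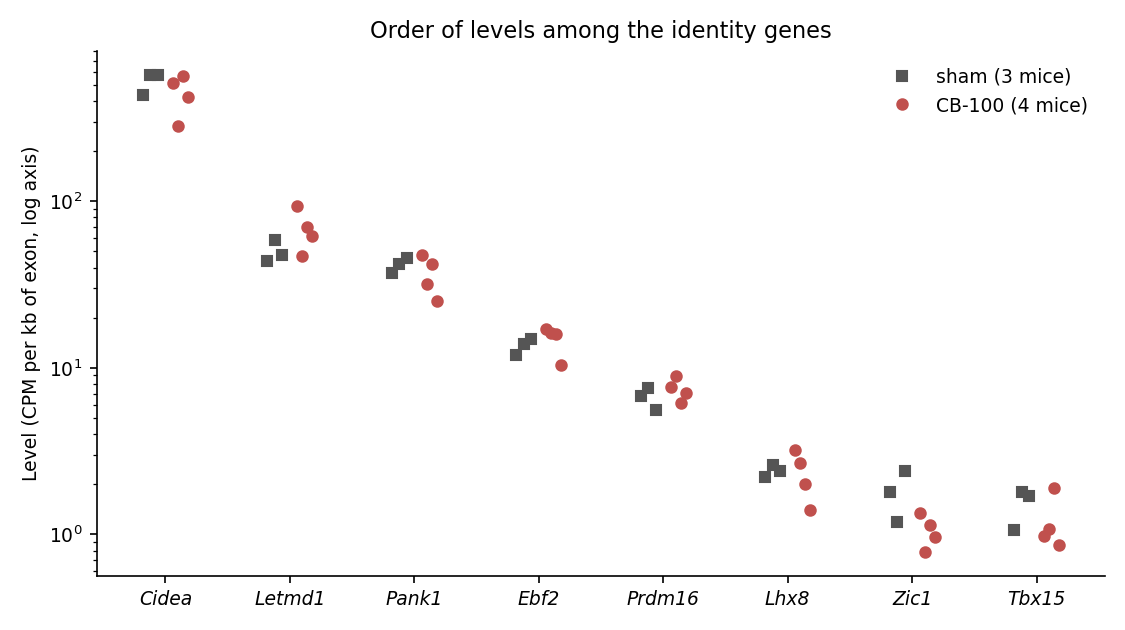
Level of each identity gene in CPM per kb of exon (log axis), with squares for the 3 sham mice and circles for the 4 CB-100 mice. Cidea lies between 284 and 577 and Tbx15 between 0.87 and 1.90, and within each gene the groups overlap.

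The spread between mice was ordinary for most of the set. The highest library over the lowest gave a ratio of 1.62 in Prdm16 to 3.04 in Zic1, with a median of 2.08, and the median over 15415 genes of at least 1 CPM was 2.04. Of 16 adrenergic heat effectors, 10 had a higher ratio than any identity gene. Ucp1, the uncoupling protein of brown fat, spanned a ratio of 48.5 and stood at 2237, 450, 1098 and 1824 CPM in CB-100 and at 140, 875 and 46.1 CPM in sham. Sham replicate 3, the lowest for Ucp1, had the highest Cidea (643 CPM) and Zic1 (13.6 CPM) and the lowest Prdm16 (51.8 CPM) of the 7 libraries.

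Prdm16 lies on chromosome 4, 154316125 to 154636873, minus strand of GRCm38, and 3 gene models on the opposite strand overlap it. It stood at 71.2, 83.8, 57.7 and 65.7 CPM in the CB-100 libraries and at 63.5, 70.1 and 51.8 CPM in sham. CB-100 replicates 1 and 2 were above each sham library and the others fell inside the sham range. The fitted log2 change was 0.17 (SE 0.17, 95% interval -0.21 to 0.55, edgeR adjusted p = 0.57), and with 1 library left out it ran from 0.05 (without sham replicate 3) to 0.27 (without sham replicate 2), with 0.07 without CB-100 replicate 2. The overlapping model whose exons meet those of Prdm16, B230104I21Rik, held 2.02 to 15 counts per library against 802 to 1413 for Prdm16. Prdm16 counts were whole in all libraries but sham replicate 3.

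Ebf2 lies on chromosome 14, 67233292 to 67430918, plus strand. Its level was 118, 112, 110 and 71.9 CPM in CB-100 and 83.0, 96.3 and 103 CPM in sham. Of the CB-100 libraries 3 were above each sham library, and replicate 4 was the lowest of all 7. Between the groups the log2 change was 0.13 (SE 0.19, 95% interval -0.31 to 0.57, edgeR adjusted p = 0.72). With 1 library left out it ran from 0.04 (without sham replicate 1) and 0.06 (without CB-100 replicate 1) to 0.27 (without CB-100 replicate 4). Ebf2 counts were non-whole in 7 of 7 libraries and 5 gene models on the opposite strand overlap it, so its level is uncertain. Gm10860, the model whose exons meet those of Ebf2, held 5.23 to 17.7 counts per library against 1226 to 2196 for Ebf2.

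Zic1 gave the largest estimate of the set in absolute size and lies on chromosome 9, 91358058 to 91365810, minus strand. It stood at 7.66, 4.48, 6.47 and 5.49 CPM in CB-100 and at 10.3, 6.73 and 13.6 CPM in sham. CB-100 replicates 2, 3 and 4 lay below each sham library, and CB-100 replicate 1 lay above sham replicate 2. The mean was 6.02 ± 1.36 CPM (SD, n = 4) against 10.2 ± 3.43 CPM (SD, n = 3). The estimated log2 change was -0.76 (SE 0.27, 95% interval -1.38 to -0.14, adjusted p = 0.14 and unadjusted p = 0.022 in edgeR's fit over all genes), so that Zic1 did not pass. These levels rest on 49 to 289 counts. Without sham replicate 3, the male with the highest value, the log2 change was -0.50, and without sham replicate 2 it was -0.98. In the 5 females alone it was -0.54 (edgeR adjusted p = 0.49).

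Zic4, the zinc finger gene on the opposite strand beside Zic1, had a like pattern at a lower level. It stood at 1.43, 1.64, 2.66 and 0.93 CPM in CB-100 and at 3.90, 2.61 and 3.95 CPM in sham, with CB-100 replicate 3 just above sham replicate 2. Its log2 change was -1.08 (SE 0.37, edgeR adjusted p = 0.12), which did not pass. Exons of a Zic4 transcript overlap Zic1. Whether counting used the strand is not given in the sources used here, so reads of this pair may be shared. Zic1 counts were non-whole in 0 of 7 libraries. Zic4 counts were non-whole in some libraries (75.09 in sham replicate 1) and whole in others (38 in sham replicate 2). Sharing of reads was not tested. The RefSeq promoters of both genes are shown because these neighbours had estimates of the same sign and their starts lie 3204 bases apart, facing away from each other. Each run is 300 bases on the gene's own strand, 250 before and 50 after the start. Capitals mark promoter motifs matched on either strand. A GC box, the element that SP1 binds, was searched as GGGCGG. The element known from NF-Y binding was searched as CCAAT. The TATA box, near which transcription may start, was searched as TATAAA. The core to which nuclear receptors bind was searched as AGGTCA. Matches may overlap.
Zic1, chr9:91365719-91366018, minus strand, GRCm38.p6: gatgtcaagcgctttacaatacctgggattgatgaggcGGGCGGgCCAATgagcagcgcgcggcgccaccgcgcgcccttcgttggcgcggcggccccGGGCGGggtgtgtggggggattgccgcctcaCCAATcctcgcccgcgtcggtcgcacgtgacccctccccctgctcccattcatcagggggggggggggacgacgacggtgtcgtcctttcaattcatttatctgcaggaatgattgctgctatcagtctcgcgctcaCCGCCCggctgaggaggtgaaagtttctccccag
Zic4, chr9:91368722-91369021, plus strand, GRCm38.p6: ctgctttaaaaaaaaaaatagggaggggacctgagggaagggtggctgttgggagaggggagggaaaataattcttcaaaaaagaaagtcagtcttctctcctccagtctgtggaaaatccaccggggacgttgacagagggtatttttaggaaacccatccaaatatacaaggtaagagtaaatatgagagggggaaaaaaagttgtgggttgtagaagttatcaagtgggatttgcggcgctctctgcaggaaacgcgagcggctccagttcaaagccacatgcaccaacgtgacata
The Zic1 promoter held 3 GC boxes and 2 CCAAT boxes at 65.3% G and C, and the Zic4 promoter held none of these letters at 46.0%. Over 32851 promoters in the RefSeq table, 35.7% held a GC box, 37.4% a CCAAT box, 13.6% a TATA box and 16.3% an AGGTCA element. Promoters of 5 of the 8 genes were in the table, with 2 starts for Pank1. That of Prdm16 held 1 GC box and 1 CCAAT box, that of Lhx8 none of these letters, and the starts of Pank1 2 TATA boxes at one and 2 CCAAT boxes at the other.

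Lhx8, a LIM homeobox gene, lies on chromosome 3, 154306294 to 154330659, minus strand. It stood at 8.16, 6.76, 5.11 and 3.54 CPM in CB-100 and at 5.62, 6.60 and 6.06 CPM in sham, from 71 to 129 counts. The CB-100 libraries lay on both sides of the narrow sham range, 2 above and 2 below. The fitted log2 change was -0.06 (SE 0.29, 95% interval -0.70 to 0.59, edgeR adjusted p = 0.92), and its sign changed when CB-100 replicate 3, CB-100 replicate 4 or sham replicate 2 was left out, with values of 0.0041, 0.13 and 0.0020.

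Tbx15, a T-box gene, lies on chromosome 3, 99240381 to 99354259, plus strand. Its level was 3.65, 4.02, 7.12 and 3.26 CPM in CB-100 and 4.01, 6.73 and 6.35 CPM in sham, from 44 to 135 counts. The values formed a high set of CB-100 replicate 3 and sham replicates 2 and 3 and a low set of the other libraries. Between the groups the log2 change was -0.34 (SE 0.32, 95% interval -1.07 to 0.39, edgeR adjusted p = 0.56). It was -0.65 without CB-100 replicate 3 and -0.55 without sham replicate 1, but -0.20 without CB-100 replicate 4 and -0.21 without sham replicate 2.

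The libraries of the high set also held the most skeletal muscle RNA. The 16 skeletal muscle markers summed to 357, 496, 2557 and 505 CPM in CB-100 and to 938, 2092 and 1719 CPM in sham. Of them 0 passed edgeR's test (0 at an unadjusted p under 0.05, and 0 by DESeq2 or limma voom). The shares over all genes were 3.70% by edgeR, 23.9% at an unadjusted p under 0.05, 10.8% by DESeq2 and 7.21% by limma voom. The median log2 change of the 16 was -0.77, with 4 estimates above 0 and 12 below. Mylpf, a fast myosin light chain, gave -1.11 (edgeR adjusted p = 0.33) and Actn3, an actinin of fast fibres, -1.19 (edgeR adjusted p = 0.40). Above 0 were Mb (0.60), Myh2 (0.36), Casq1 (0.02) and Myl1 (0.01). The count of 0 in edgeR rests on CB-100 replicate 3, the library with the most muscle RNA. Without it 5 of the 16 markers were called lower, with a median of -1.87, in a fit that called 187 of 16679 genes. With any 1 other library left out 0 of the 16 were called. The median then ran from -1.11 (without sham replicate 1) to -0.38 (without sham replicate 2). In the 5 females alone the median was -1.84, and 0 of the 16 and 0 of all genes were called. With the mean log2 CPM of these markers as a covariate, the log2 change of Tbx15 was 0.01 (SE 0.26), in a fit that called 10 genes of all tested. Because the libraries fall into separate sets, no correlation of Tbx15 with muscle RNA is given, and the part of muscle RNA in the Tbx15 level was not tested.

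**Figure D2:**
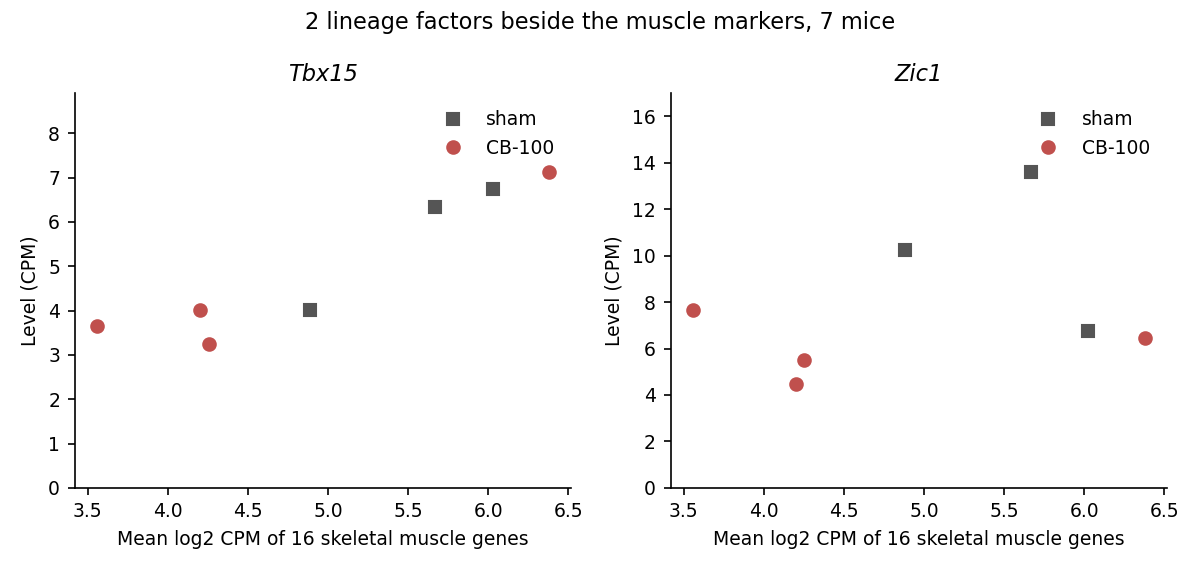
Level of Tbx15 (left) and Zic1 (right) in CPM against the mean log2 CPM of 16 skeletal muscle genes, 1 point per mouse. For Tbx15 the 3 mice with the most muscle RNA lie between 6.35 and 7.12 CPM and the others between 3.26 and 4.02, while Zic1 shows no such sets.

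Letmd1 gave the highest estimate and lies on chromosome 15, 100469023 to 100479164, plus strand, with no overlapping gene model. It stood at 452, 228, 339 and 300 CPM in CB-100 and at 213, 285 and 230 CPM in sham. CB-100 replicates 1, 3 and 4 lay above each sham library and replicate 2 lay within the sham range. The mean was 330 ± 93.8 CPM (SD, n = 4) against 243 ± 37.7 CPM (SD, n = 3). Its log2 change was 0.44 (SE 0.25, 95% interval -0.11 to 1.00, edgeR adjusted p = 0.30), and with 1 library left out it ran from 0.25 (without CB-100 replicate 1) to 0.59 (without CB-100 replicate 2). Its promoter is shown as that of the highest estimate, opposite in sign to Zic1, with the same marks.
Letmd1, chr15:100468761-100469060, plus strand, GRCm38.p6: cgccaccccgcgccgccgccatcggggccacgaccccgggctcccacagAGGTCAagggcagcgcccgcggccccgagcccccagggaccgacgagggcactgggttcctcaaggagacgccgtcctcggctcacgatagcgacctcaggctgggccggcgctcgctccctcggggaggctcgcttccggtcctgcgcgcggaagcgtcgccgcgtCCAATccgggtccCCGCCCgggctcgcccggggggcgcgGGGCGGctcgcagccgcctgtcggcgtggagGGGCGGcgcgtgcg
This window was 79.0% G and C against a mean of 53.8% over the RefSeq promoters, and held 3 GC boxes, 1 CCAAT box and 1 AGGTCA element.

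Pank1 lies on chromosome 19, 34806940 to 34879455, minus strand, and hosts the microRNA gene Mir107, which was listed at 0 counts in each library. Its level was 391, 262, 348 and 207 CPM in CB-100 and 307, 347 and 377 CPM in sham. CB-100 replicate 1 was above the sham range, replicates 2 and 4 were below it, and replicate 3 was within it. The fitted log2 change was -0.19 (SE 0.24, 95% interval -0.72 to 0.35, edgeR adjusted p = 0.67), and with 1 library left out it ran from -0.33 (without CB-100 replicate 1) to -0.04 (without CB-100 replicate 4).

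Cidea, the lipid droplet protein gene, lies on chromosome 18, 67343604 to 67367785, plus strand. It stood at 574, 317, 634 and 473 CPM in CB-100 and at 488, 637 and 643 CPM in sham. CB-100 replicate 2 was the lowest by a wide margin, and it was also the lowest of the CB-100 libraries for Letmd1 and Ucp1. The estimated log2 change was -0.24 (SE 0.26, 95% interval -0.83 to 0.35, edgeR adjusted p = 0.61), and with 1 library left out it ran from -0.37 (without CB-100 replicate 3) to -0.07 (without CB-100 replicate 2). A gene model on the opposite strand, B430212C06Rik, overlaps Cidea outside its exons and held 19.8 to 73.1 counts per library.

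**Figure D3:**
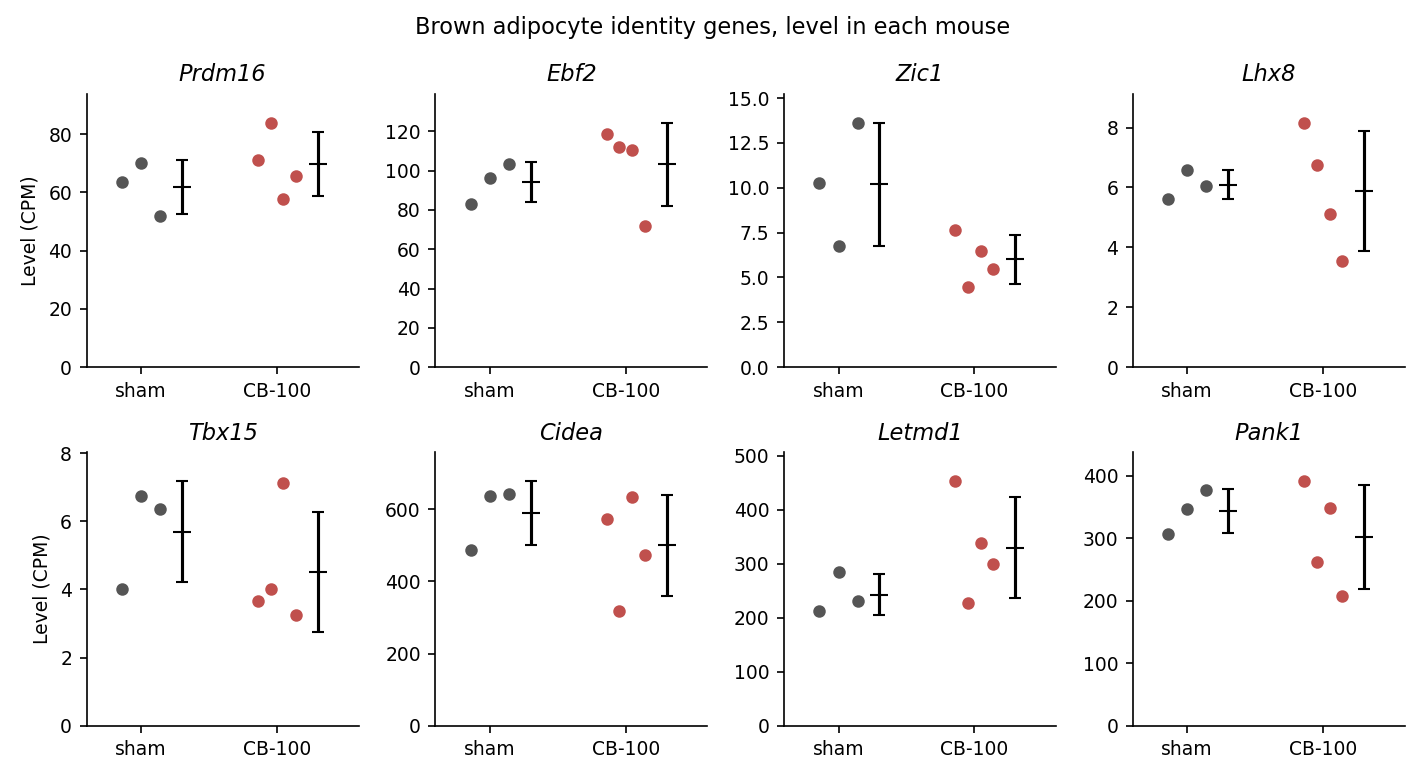
Level (CPM) of the 8 identity genes in each mouse, with 3 sham and 4 CB-100 points and, beside them, the mean and SD of the group. The groups overlap in each panel, with Zic1 closest to a separation (4.48 to 7.66 CPM in CB-100 against 6.73 to 13.6 CPM in sham).

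The way libraries were scaled moved all 8 estimates together. General adipocyte genes, 15 genes of any fat cell, had a median log2 change of -0.28, with 12 estimates below 0 and 3 above. Of them 0 passed edgeR's test (4 at an unadjusted p under 0.05, 4 by DESeq2 and 3 by limma voom). The shares over all genes were 3.70% by edgeR, 23.9% at an unadjusted p under 0.05, 10.8% by DESeq2 and 7.21% by limma voom. Adipoq, the adiponectin gene, gave -0.91 (edgeR adjusted p = 0.051) and Cfd, the adipsin gene, -1.50 (edgeR adjusted p = 0.070). When counts were taken relative to the summed counts of these 15 genes, the median of all genes tested moved from 0.03 to 0.48. On that scale Letmd1 had a log2 change of 0.90 (edgeR adjusted p = 0.034) and was the 1 call among the 8, where 18.2% of all genes were called. Scaling multiplies all genes of a library by the same factor. Places relative to the median of all genes are therefore nearly fixed in advance and add no support. Relative to that median, Letmd1 stood 0.42 higher with adipocyte scaling and 0.41 higher on library totals. Zic1 stood at -0.80 and -0.79 relative to it. Estimates of Cidea, Pank1, Lhx8 and Tbx15 turned from below to above 0 with this scaling, at 0.23, 0.28, 0.41 and 0.16, while each of them stayed below the median of all genes.

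**Figure D4:**
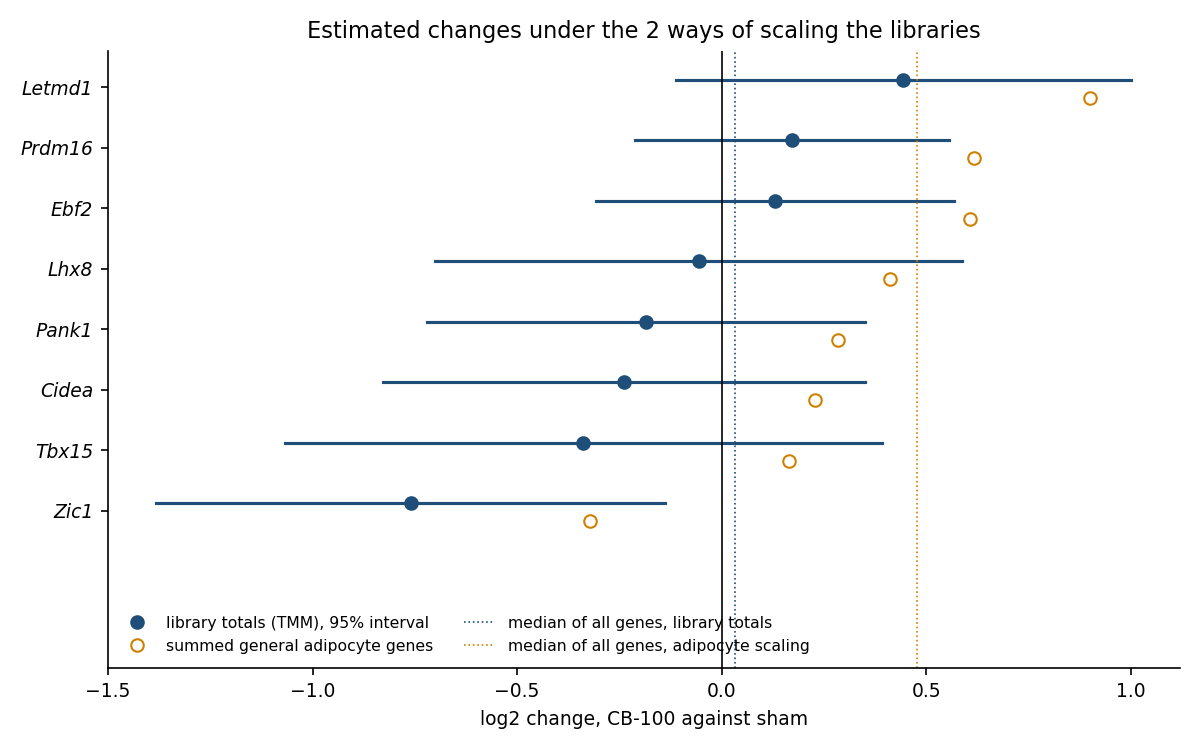
Log2 change of each identity gene in CB-100 against sham. Filled points with 95% intervals use library totals, open points use summed general adipocyte genes, and dotted lines mark the median of all genes on each scale (0.03 and 0.48). Letmd1 is the highest and Zic1 the lowest on both, as a change of scale shifts all genes nearly alike.

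Partners of PRDM16 and proteins that control its turnover had estimates of either sign, 6 above 0 and 10 below. Of 16 tested genes 0 passed edgeR's test (3 at an unadjusted p under 0.05, 2 by DESeq2 and 1 by limma voom), and the median log2 change was -0.08. The shares over all genes were 3.70% by edgeR, 23.9% at an unadjusted p under 0.05, 10.8% by DESeq2 and 7.21% by limma voom. Cul2, the cullin of the ligase that degrades PRDM16, gave -0.80 (SE 0.21, edgeR adjusted p = 0.065), from 19.2, 16.6, 22.9 and 14.3 CPM in CB-100 and 30.4, 25.0 and 39.8 CPM in sham. Ctbp2, a corepressor that PRDM16 binds, gave -0.50 (SE 0.15, edgeR adjusted p = 0.083). Both kept their groups apart without passing. The groups lay apart in 3 of the 16 genes of this list, against 23.3% of all genes tested. Ehmt1, the histone methyltransferase of the complex, gave 0.11, and Appbp2, the substrate receptor of the same ligase, -0.12.

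Of 34 tested regulators of brown and beige fat beyond the 8, edgeR called 0 (7 at an unadjusted p under 0.05, 4 by DESeq2 and 1 by limma voom). The shares over all genes were 3.70% by edgeR, 23.9% at an unadjusted p under 0.05, 10.8% by DESeq2 and 7.21% by limma voom. The median log2 change of the 34 regulators was -0.13, with 13 estimates above 0 and 21 below. Ebf3, a paralog of Ebf2, stood at 79.4, 68.8, 75.0 and 75.3 CPM in CB-100 and at 41.6, 48.6 and 56.4 CPM in sham. The lowest CB-100 value exceeded the highest sham value. Groups lay apart in this way in 6 of the 34 genes, against 23.3% of all genes tested. The Ebf3 estimate of 0.61 on the log2 scale (SE 0.14) fell just short of the threshold, with an edgeR adjusted p of 0.051. Ebf1, the other paralog expressed well in fat, gave 0.15. Zbtb16, a zinc finger factor of thermogenic fat, gave -1.48 (SE 0.38, edgeR adjusted p = 0.064), and sham replicate 1 was its highest library at 376 CPM.

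Close relatives of the 8 genes also gave 0 calls of 20 in edgeR (4 at an unadjusted p under 0.05, 1 by DESeq2 and 1 by limma voom), with a median of 0.16. For this list and the next, the shares over all genes were 3.70% by edgeR and 23.9% at an unadjusted p under 0.05. They were 10.8% by DESeq2 and 7.21% by limma voom. Pank3, another pantothenate kinase, stood at 242, 183, 142 and 230 CPM in CB-100 and at 86.7, 159 and 109 CPM in sham, where 1 CB-100 library lay below sham replicate 2. Its estimate was 0.75 on the log2 scale (SE 0.26) at an edgeR adjusted p of 0.12, against -0.19 for Pank1. Cidec, the lipid droplet paralog of Cidea, gave -0.28 and Letm1, a mitochondrial relative of Letmd1, 0.50 (edgeR adjusted p = 0.39). In the 17 genes of coenzyme A synthesis and turnover, Pank1 included, edgeR called 0 (5 at an unadjusted p under 0.05, 2 by DESeq2 and 1 by limma voom), with a median of -0.26. Vnn1, a pantetheinase, which cleaves pantetheine from coenzyme A breakdown, gave -1.72 (SE 0.44, edgeR adjusted p = 0.065), and Acp1, an acid phosphatase, gave -0.71 (edgeR adjusted p = 0.090).

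Other markers of classical brown fat went both ways. Of 35 tested, edgeR called 3 higher and 1 lower (10 at an unadjusted p under 0.05, with 8 called by DESeq2 and 5 by limma voom). The shares over all genes were 3.70% by edgeR, 23.9% at an unadjusted p under 0.05, 10.8% by DESeq2 and 7.21% by limma voom. The list had a median log2 change of -0.12 and a mean of 0.28, with 17 estimates above 0 and 18 below. The higher genes were Gk (2.59), the glycerol kinase, S100b (2.51), a calcium-binding protein also made by Schwann cells, and Mapk8ip1 (1.22), a kinase scaffold. Slc27a2, a fatty acid transporter and acyl-CoA synthetase, was lower (-1.26). The 4 calls became 0 without CB-100 replicate 1 or 2 or sham replicate 1 or 3, 1 without CB-100 replicate 3, and 2 without CB-100 replicate 4 or sham replicate 2. They also became 0 with the muscle covariate and in the 5 females alone. In the adrenergic list, 1 of 16 genes passed, Gk, with 5 at an unadjusted p under 0.05, 2 called by DESeq2 and 2 by limma voom, beside the same shares over all genes. The list's median was 0.69, with 11 estimates above 0. It shares Gk with the list of classical brown markers, so the 2 lists are not separate evidence. Gk was not called without a filter on low counts (edgeR adjusted p = 0.15), with the muscle covariate (edgeR adjusted p = 0.16) or in the 5 females alone (edgeR adjusted p = 0.19). Nor was it called with any 1 library left out other than sham replicate 2. The count of the list was then 0, and without sham replicate 2 it was 2.

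Markers of other fat and cell types were read beside these values. For the counts below, the shares over all genes were 3.70% by edgeR, 23.9% at an unadjusted p under 0.05, 10.8% by DESeq2 and 7.21% by limma voom. Groups lay apart in 23.3% of all genes tested. Of 5 tested beige markers 0 passed in edgeR (1 at an unadjusted p under 0.05, 1 by DESeq2 and 0 by limma voom). Of the 5 estimates 3 were above 0 and 2 below, Slc27a1 (-0.25) and Shox2 (-0.14). Sp100, a nuclear body protein, gave 0.86 (edgeR adjusted p = 0.080) and Cd40, a receptor of the TNF receptor family, 1.07 (edgeR adjusted p = 0.26). Cd40 was low, with a mean of 0.57 CPM over the sham mice against 1.17 CPM over the CB-100 mice. Its highest library was CB-100 replicate 4 at 2.19 CPM, and its lowest was CB-100 replicate 1 at 0.43 CPM. White fat markers had 7 of 10 estimates above 0 and 3 below. DESeq2 called 2 of the 10 and limma voom 2, with 1 higher and 1 lower in each. In edgeR 1 passed (2 at an unadjusted p under 0.05). It was Nnmt, a nicotinamide methyltransferase, which rose from 2.38 ± 0.82 CPM (SD, n = 3) in sham to 8.08 ± 1.81 CPM (SD, n = 4) in CB-100. That is a log2 change of 1.78, with SE 0.30 and an edgeR adjusted p of 0.027. It was not called without CB-100 replicate 1 or 2 or without sham replicate 1 or 3. Nor was Nnmt called with the muscle covariate (edgeR adjusted p = 0.10) or in the 5 females alone (edgeR adjusted p = 0.18). The 12 preadipocyte and stromal markers summed to 909 to 1888 CPM in CB-100 and 452 to 851 CPM in sham, without overlap, and 11 of 12 estimates were above 0 (0 passed in edgeR, 5 at an unadjusted p under 0.05, 4 by DESeq2 and 3 by limma voom). Col1a1 and Col3a1 made up 630 to 1367 CPM of the sum in CB-100 and 168 to 483 CPM in sham, and the other 10 markers overlapped, at 279, 373, 330 and 526 CPM in CB-100 and 284, 368 and 272 CPM in sham. Col3a1, a fibrillar collagen gene, gave 1.87 (edgeR adjusted p = 0.062), and Dcn, the proteoglycan decorin, was the 1 estimate below 0 (-0.74, edgeR adjusted p = 0.055). Schwann cell and nerve markers summed to 80.8 to 93.6 CPM in CB-100 and 54.6 to 62.6 CPM in sham, with Th at 0 in each library, and 0 of 7 passed in edgeR (3 at an unadjusted p under 0.05, 1 by DESeq2 and 1 by limma voom). Mbp, a myelin protein gene, gave 0.51 (edgeR adjusted p = 0.065) and Ngfr, a neurotrophin receptor gene, 0.81 (edgeR adjusted p = 0.14). Endothelial markers (1067 to 2292 against 896 to 1453 CPM) and immune markers (91.3 to 209 against 97.0 to 149 CPM) overlapped. Of 10 endothelial genes 8 estimates were above 0 and 2 below, Cldn5 (-0.22) and Esam (-0.20). In edgeR 0 passed (2 at an unadjusted p under 0.05, 1 by DESeq2 and 1 by limma voom). Their median was 0.38, and 0.0033 without CB-100 replicate 4. Among endothelial genes, Egfl7 gave 1.19 (edgeR adjusted p = 0.051) and the receptor gene Tie1 0.57 (edgeR adjusted p = 0.12). Of 9 immune genes 4 estimates were above 0 and 5 below. In edgeR 0 passed (2 at an unadjusted p under 0.05, 0 by DESeq2 and 0 by limma voom). Among immune genes, Ptprc, the CD45 gene, gave 0.53 (edgeR adjusted p = 0.11) and the T cell gene Cd3e -1.38 (edgeR adjusted p = 0.20). The part of these cells in the levels of the identity genes was not tested.

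For each identity gene, the protein-coding genes with the most similar pattern were found by Pearson's r of log2 CPM over the 7 libraries, among 12752 genes. These values share library depth and scaling, and are descriptions. Prdm16 was closest to Mmd2 (r = 0.99) and the mast cell chymase Cma1 (0.98), Ebf2 to Wdfy1 (0.99) and Cntfr (0.98), and Zic1 to Pik3ip1 (0.98) and the mitochondrial ribosomal protein gene Mrpl1 (0.98). Cidea was closest to Mrps5 (0.98), also of the mitochondrial ribosome, and Cpt1b (0.98), which admits fatty acids to mitochondria. Letmd1 was closest to Mrpl37 (0.97) and Tasp1 (0.97), Lhx8 to Epn1 (0.97) and Vcpkmt (0.97), and Pank1 to Usp30 (1.00) and Timm23 (0.99), both of mitochondria. Tbx15 was closest to Pvalb, the parvalbumin of fast muscle, and Jsrp1, a protein of the muscle calcium release complex, and r is left out because the libraries form separate sets. Pvalb stood at 29.1 to 40.9 CPM in the 3 libraries with high Tbx15 and at no more than 10.2 CPM in the others. Within the set, r ran from -0.76 (Prdm16 with Zic1) to 0.80 (Ebf2 with Lhx8).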

How the data were processed

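Alignment used STAR 2.7.9a and the mouse assembly of Ensembl release 101, per the labels' protocols. Further tools in the submitters' processing notes are Subread, featureCounts 2.0.3, Salmon 1.5.2, edgeR and limma. The strand setting and the handling of shared reads are not stated there. Expected counts per gene were deposited by the authors, not normalized, with up to 2 decimals in part of the genes. Of 55774 lines, 287 repeats were removed. Counts were rounded to whole numbers, filtered with filterByExpr, scaled by TMM and tested with edgeR 4.0.16 (robust quasi-likelihood, R 4.3.3), BH-adjusted over 16823 genes at a threshold of 0.05. The coefficient of variation between replicates was 28.0%. Counting error reached 15.1% at the lowest count of the 8 genes (44), so both limit the precision there. SE is the log2 change over the square root of F, and 2 was the prior count for log2 CPM.

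Groups come from the treatment label and replicate numbers from sample order. Titles carry animal codes, the only sign that samples are separate mice, so p-values cover only how far these samples spread, which may be technical. Coordinates and exon lengths are from GENCODE M21 (GRCm38), which matched 99.5% of identifiers. The 8 genes and all lists were chosen with earlier results of these data known. Named are the 8 genes, Ucp1, Adipoq, up to 4 called genes per list (otherwise the 2 with the smallest p) and the 2 genes most like each member. Other genes named (Ehmt1, Appbp2, Ebf1, Pank3, Cidec, Letm1, Col1a1) were chosen after their values were seen. So were Agt, Slc27a1, Shox2, Mb, Myh2, Casq1, Myl1, Cldn5 and Esam. Alternatives were DESeq2 1.42.0, limma 3.58.1 voom, other scalings, filters and covariates, and each library left out. The edgeR test was also run on data simulated with the spread and library sizes of this fit, with no outcome given here. Such data cannot show how far the calls depend on single libraries.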

Additional observations from a re-analysis of the deposited data

How the results depend on the processing

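The count of identity genes called was 0 under 17 of 18 alternatives and 1 (Letmd1) with scaling to general adipocyte genes. Where few genes of all passed, a count of 0 says nothing about stability. With adipocyte scaling the log2 changes of Cidea, Lhx8, Tbx15 and Pank1 turned to 0.23, 0.41, 0.16 and 0.28. Tbx15 also turned, to 0.012, with a skeletal muscle score as covariate. Leaving out 1 library at a time moved Lhx8 between -0.26 and 0.13. Of 144 recomputed values of the 8 genes, 8 changed sign and 135 kept their sign and stayed short of the threshold. Prdm16, Ebf2, Zic1 and Letmd1 kept their sign under the 18 alternatives run, Zic1 between -0.98 and -0.32 with an adjusted p of 0.091 to 0.49. The count over all genes, 622, was 1826 with DESeq2, 1213 with limma voom, 238 with sex as covariate, 10 with the muscle score as covariate, 3067 with adipocyte scaling, 0 in the 5 females alone (an alternative chosen after seeing the data; 2578 at an unadjusted p under 0.05), and 8 to 610 with 1 library left out. No paired analysis was possible because the labels share no replicate numbers between groups. Zic1, Lhx8 and Tbx15 rest on 44 to 289 counts per library.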

Other observations

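Ratios between the identity genes within a library do not depend on how libraries are scaled, and the 28 pairs were compared after the levels had been seen. In 4 of the 28 pairs the 4 CB-100 libraries lay apart from the 3 sham libraries, against 21.4% of all pairs of tested genes. Letmd1, which had the highest single estimate of the set, was in 3 of them. The pairs share genes, so they are not separate evidence. The ratio of Cidea to Letmd1 was 1.27, 1.39, 1.87 and 1.58 in CB-100 and 2.29, 2.24 and 2.80 in sham, a difference of -0.69 on the log2 scale (two-sided, exact permutation p = 0.057 and 0.40 after BH adjustment over the pairs). The ratio of Letmd1 to Pank1 was 1.16, 0.87, 0.97 and 1.45 in CB-100 and 0.69, 0.82 and 0.61 in sham (log2 difference 0.63, exact permutation p = 0.057, BH-adjusted p = 0.40). Zic1 to Letmd1 gave a log2 difference of -1.14 (exact permutation p = 0.029, the smallest that 35 splits can give, BH-adjusted p = 0.40). Ebf2 to Pank1 gave 0.33 (exact permutation p = 0.057, BH-adjusted p = 0.40), so no pair passed after adjustment. With 35 splits most of the 28 pairs would have had to reach the smallest p for any to pass.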
